A study of Mus musculus with 8 samples.

Results

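The TALE homeobox factors Meis1, Meis2, Pbx2, Pbx3, Pknox1, Pknox2 and Tgif1 were examined in mouse pSHF (posterior second heart field), mesenchyme dorsal to the embryonic heart that contributes to the atrial septum. Every array probe, other than a control, whose gene name in the scanner files was one of these 7 genes was taken, which gave 15 of 41174 probes for 7 of 27827 gene names. RNA from dissected pSHF of E9.5 mouse embryos was compared between 4 pools heterozygous for a Tbx5 mutation (Tbx5-/+) and 4 wild-type pools, each on 1 Agilent array of 60-base probes. The labels give the samples of both groups the embryo numbers 1, 5, 6 and 7, and they place numbers 1 and 5 on array 1 and numbers 6 and 7 on array 2. The mice were kept on a mixed background and the dams had received gonadotropins before mating, in both groups. The mutation is carried by all cells of the embryo, and the labels do not say how many embryos a pool held. A lower signal from fewer cells of a type cannot be told apart from less RNA per cell in such tissue pools.

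TALE proteins carry a homeodomain that is lengthened by 3 residues between its first and second helices. Pbx proteins bind DNA together with Hox proteins, and Meis and Pknox (Prep) proteins bind Pbx, hold it in the nucleus and join Hox and Pbx on DNA. Tgif1 is a repressor that binds DNA sequences much like those of Meis and restrains Smad proteins in TGF-beta signalling. Loss of Pbx or Meis function in mice is known for defects of the cardiac outflow tract and septa, and Tbx5, the T-box factor mutated here, is required for atrial septation.

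The 4 probes below are shown because they lie in coding sequence. The first 3 were lower at an unadjusted p under 0.05, and the fourth was below background. Each is written 5′ to 3′ in the sense of the mRNA, in mm9 coordinates, and the capitals in the Pbx2 probe mark the codons at the core of the DNA-recognition helix of the homeodomain. The Meis1 probe lies at chr11:18911247-18911306 (minus strand), the Pbx2 probe at chr17:34731746-34731805 (plus strand), the Tgif1 probe at chr17:71194438-71194497 (minus strand) and the Pknox2 probe, which stayed below background on every array, at chr9:36731264-36731323 (minus strand).
Meis1 A_52_P670612: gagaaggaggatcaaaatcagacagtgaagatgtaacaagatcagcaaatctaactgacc
Pbx2 A_52_P339182: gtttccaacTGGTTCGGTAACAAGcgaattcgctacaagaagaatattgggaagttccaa
Tgif1 A_52_P257590: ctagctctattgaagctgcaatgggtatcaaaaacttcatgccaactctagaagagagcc
Pknox2 A_52_P637756: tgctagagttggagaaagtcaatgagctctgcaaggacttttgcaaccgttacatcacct

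In the dissected tissue, which also expressed markers of foregut, cardiomyocytes and primitive erythrocytes, all 7 genes were detected by 12 of the 15 probes. These 12 stood well above background on every array of one group or both, and they were tested. Signals are given on the log2 scale after variance stabilization (VSN), and a level is comparable between arrays for 1 probe but not between probes. With limma and Benjamini-Hochberg adjustment over all 20028 probes tested, 0 of the 12 passed an adjusted p of 0.05, and neither did any other probe (0%), the smallest adjusted p being 0.0921. At an unadjusted p under 0.05, 5 of the 12 differed, against a background of 21.9% of all probes. All 5 were lower in Tbx5-/+, as were 18.5% of all probes, and 0 were higher, against 3.38%. The 5 were a Meis1 probe, a Pbx2 probe, both Pbx3 probes and the Tgif1 probe. One of the Pbx3 probes, A_52_P406028, was tested only through its wild-type arrays, and among the 11 member probes above background on all 8 arrays the count was 4. In 3 of the 12 all Tbx5-/+ arrays lay below all wild-type arrays, against 8.98% of all probes.

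The median difference, Tbx5-/+ minus wild-type, was -0.47 over the 12 probes and -0.19 over all probes tested, of which 65.4% were lower. That general shift depended on the scaling: it was 0.10 after scaling to the 75th percentile, -0.014 after quantile normalization and 0.13 after centring each array on its median. Of the probes with an unadjusted p under 0.05, 84.6% were lower after VSN, 35.6% after percentile scaling, 49.6% after quantile normalization and 29.0% after centring. For this reason the larger differences are stated a second time with the median of all probes subtracted. With the embryo number as a block, 3 of the 12 passed the adjusted threshold, all lower, against 10.7% of all probes called lower in that fit. The same 3 probes, of Meis1, Pbx2 and Pbx3, passed without Tbx5-/+ 1, where 19.2% of all probes passed. With the array label as a block 0 of the 12 passed, and 0% of all probes did.

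**Figure D1:**
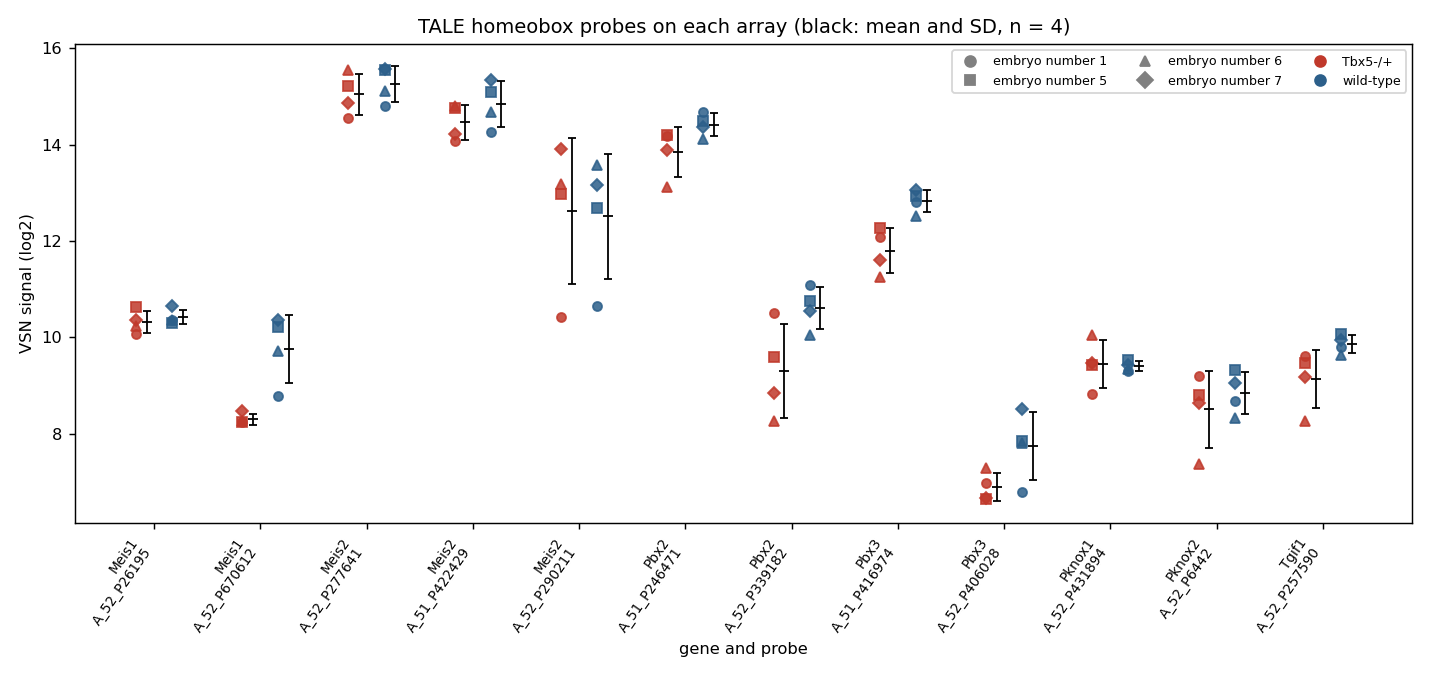
VSN signal (log2, vertical axis) of the 12 probes tested, with 1 symbol per array, the shape giving the embryo number, red Tbx5-/+ and blue wild-type, and black marks giving the mean and SD of 4 arrays. The red symbols lie wholly below the blue ones for Meis1 A_52_P670612, Pbx3 A_51_P416974 and Tgif1 A_52_P257590.

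The arrays differed in ways that touch these values. Between 45.0% and 52.8% of spots were well above background on the Tbx5-/+ arrays and between 50.9% and 63.6% on the wild-type arrays. The leading principal component, with 56.9% of the variance, placed Tbx5-/+ 1 (score -37.2) among the wild-type arrays (-52.4 to -10.0) and the other Tbx5-/+ arrays apart (26.1 to 112). The median signal of the probe nearer the 3′ end minus that of the probe nearer the 5′ end of the same gene, over 3734 probe pairs, was 1.68, 2.07, 2.19 and 2.11 on Tbx5-/+ 1, 5, 6 and 7 and 1.66 to 1.84 on the wild-type arrays. This 3′ to 5′ gap was larger on 3 of the 4 Tbx5-/+ arrays than on any wild-type array, and the difference with the gap as a covariate is given for each member probe. Tbx5 itself, by probe A_52_P523712, measured 8.90, 9.62, 9.05 and 8.51 on the Tbx5-/+ arrays and 11.36, 11.45, 10.31 and 11.43 on the wild-type arrays. It was 4.34-fold lower with no overlap (adjusted p = 0.0921 by limma, and 0.0336 with the embryo number as a block). The difference was -2.12, or -2.02 with the gap as a covariate. A second Tbx5 probe, A_51_P469338, differed by -0.15 (adjusted p = 0.789).

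Meis1, which cooperates with Hox and Pbx proteins and is needed for heart and blood vessel development, had 2 probes with different results. Probe A_52_P670612, shown above, measured 8.23, 8.24, 8.26 and 8.47 on Tbx5-/+ 1, 5, 6 and 7. The wild-type arrays of the same numbers measured 8.78, 10.20, 9.71 and 10.35. The groups did not overlap, the Tbx5-/+ arrays were close together, and wild-type 1 was the lowest of its group. The means were 8.30 ± 0.11 and 9.76 ± 0.71 (SD, n = 4). The difference of -1.46 (SE 0.32) was a 2.76-fold lower signal in Tbx5-/+, or -1.27 relative to the median of all probes. It missed the threshold in limma (adjusted p = 0.0959), and the exact two-sided permutation test gave p = 0.0286, the smallest p that 4 arrays against 4 allow. With the embryo number as a block the limma adjusted p was 0.0336, without Tbx5-/+ 1 it was 0.0312, and without wild-type 1 it was 0.0189. With the array label as a block it was 0.0647, and with any other single array left out it was 0.170 to 0.346. The signal was lower in all 4 embryo numbers, with differences of -0.55, -1.96, -1.45 and -1.88, so that number 1 had the smallest difference. The difference was -1.26 on the arrays labelled 1 and -1.67 on those labelled 2.

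The other Meis1 probe, A_52_P26195, lies at chr11:18781206-18781265 (minus strand), 130041 bases farther toward the 3′ end of the gene. Its means were 10.32 ± 0.23 in Tbx5-/+ and 10.42 ± 0.15 in wild-type (SD, n = 4), and the groups overlapped. The difference was -0.09 (95% interval -0.52 to 0.33, limma adjusted p = 0.777), and its sign turned to 0.26 after percentile scaling, 0.16 after quantile normalization and 0.23 after centring. With the gap as a covariate it was -0.22. A 2-fold change in either direction lay outside this interval for the 3′ probe, whereas the interval of the 5′ probe ran from -2.18 to -0.75.

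The difference between both Meis1 probes on the same array, from which a shift of the whole array cancels, was tested directly. The 3′ minus 5′ signal was 1.84, 2.38, 1.98 and 1.90 on Tbx5-/+ 1, 5, 6 and 7 and 1.58, 0.09, 0.65 and 0.29 on the wild-type arrays. All Tbx5-/+ arrays were above all wild-type arrays. The groups differed by 1.37 (95% interval 0.51 to 2.23, exact permutation p = 0.0286), which did not pass adjustment over the 6 such pairs within a gene (adjusted p = 0.171). With the samples paired by embryo number the exact sign-flip test gave p = 0.125, the smallest that 4 pairs allow. With the 3′ to 5′ gap as a covariate the difference of the 5′ probe was -1.62 (limma adjusted p = 0.173).

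**Figure D2:**
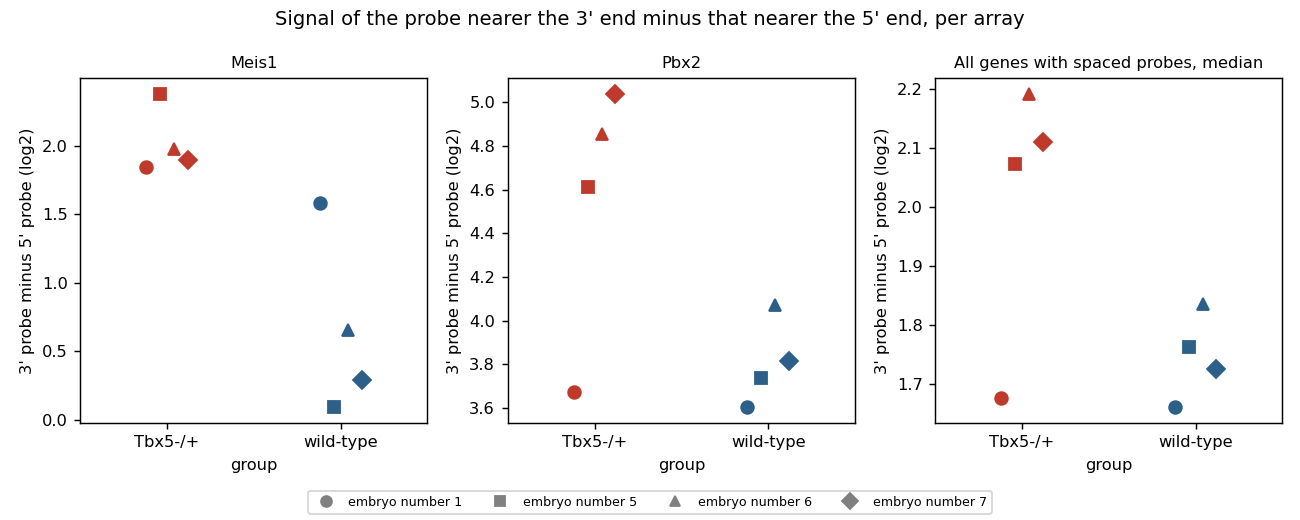
Signal of the probe nearer the 3′ end minus that of the probe nearer the 5′ end (log2, vertical axes with different ranges) on each array, for Meis1, for Pbx2 and as the median of all genes with spaced probes, with red Tbx5-/+ and blue wild-type. Tbx5-/+ 1 and wild-type 1 (circles) lie closer to each other than the arrays of any other number, at 1.84 and 1.58 for Meis1.

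Meis2, known for its part in cardiac neural crest and outflow tract development, did not differ beyond the spread between arrays by any of its 3 probes. Probe A_52_P277641 at chr2:115689066-115689125 (minus strand) measured 14.56 to 15.54 in Tbx5-/+ and 14.80 to 15.58 in wild-type, a difference of -0.22 (95% interval -0.82 to 0.38, limma adjusted p = 0.628). The sign turned to 0.12 after percentile scaling and 0.10 after centring, and the difference was -0.63 with the gap as a covariate. Probe A_51_P422429, which starts 64 bases from it, differed by -0.38 (SE 0.28, adjusted p = 0.417), by -0.70 with the gap as a covariate and by -0.017 after percentile scaling.

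The third Meis2 probe, A_52_P290211 at chr2:115821828-115821887, is 132762 bases upstream of the first probe and was designed on a cDNA record of its own. It measured 10.41, 12.97, 13.18 and 13.90 in Tbx5-/+ and 10.65, 12.67, 13.57 and 13.15 in wild-type, in the order 1, 5, 6 and 7. Both samples numbered 1 were thus more than 2 below all the others, and within numbers the groups differed by -0.24, 0.30, -0.39 and 0.75. The overall difference was 0.11 (95% interval -1.67 to 1.88, adjusted p = 0.945), and it was -1.78 with the gap as a covariate (adjusted p = 0.225).

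The difference between Meis1 and Meis2, each by its brightest probe on the same array, changed by 0.13 (95% interval -0.51 to 0.77, exact permutation p = 0.657). Neither the brightest Meis1 probe nor the brightest Meis2 probe is the Meis1 5′ probe, and with the mean of all probes of each gene the change was -0.61. After quantile normalization it was 0.58 (exact permutation p = 0.0286, adjusted p = 0.0857 over the 3 paralog pairs), and with the gap as a covariate it was 0.41.

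Pbx3, a Pbx protein that binds with Hox and Meis partners, was measured by probe A_51_P416974 at chr2:34027483-34027542 (minus strand). It read 12.08, 12.26, 11.25 and 11.60 on Tbx5-/+ 1, 5, 6 and 7 and 12.81, 12.93, 12.52 and 13.05 on the wild-type arrays. The groups did not overlap, and the Tbx5-/+ arrays numbered 6 and 7 were the lowest. The difference was -1.03 (SE 0.25), a 2.04-fold lower signal, or -0.84 relative to the median of all probes. It missed the threshold in limma (adjusted p = 0.105), with an exact permutation p of 0.0286. With the embryo number as a block the adjusted p was 0.0353, and without Tbx5-/+ 1 it was 0.0268. With the array label as a block it was 0.0647, and with any other single array left out it was 0.131 to 0.371. Pbx3 was lower in all 4 numbers, with differences of -0.73, -0.66, -1.27 and -1.45, and the difference was -0.70 and -1.36 on the arrays labelled 1 and 2. With the gap as a covariate the difference was -0.70 (limma adjusted p = 0.295).

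A second Pbx3 probe, A_52_P406028, stood well above background on 2 arrays of Tbx5-/+ and on all 4 of wild-type. It measured 6.98, 6.64, 7.28 and 6.67 in Tbx5-/+ and 6.79, 7.84, 7.81 and 8.51 in wild-type. The groups overlapped through wild-type 1, and the difference was -0.85 (SE 0.34, limma adjusted p = 0.207), or -0.97 with the gap as a covariate. This probe passed the filter only through the wild-type group, where it was brighter. The remaining Pbx3 probe, A_52_P140177, stood above background on 1 array of Tbx5-/+ and 2 of wild-type and was not tested.

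Pbx2, a broadly expressed Pbx protein, had a lower mean in Tbx5-/+ by both of its probes, and neither passed in limma on all 8 arrays without a block. Probe A_52_P339182, which carries the homeobox codons printed above, measured 10.51, 9.59, 8.25 and 8.85 on Tbx5-/+ 1, 5, 6 and 7 and 11.08, 10.76, 10.04 and 10.55 on the wild-type arrays. Tbx5-/+ 1 reached into the wild-type range, and the other Tbx5-/+ arrays were below it. The difference was -1.31 (SE 0.44), a 2.48-fold lower signal, or -1.12 relative to the median of all probes. The limma adjusted p was 0.180 and the exact permutation p was 0.0571. The adjusted p was 0.0336 with the embryo number as a block and 0.0194 without Tbx5-/+ 1. With the array label as a block it was 0.0647, and with any other single array left out it was 0.209 to 0.426. Pbx2 was lower within all 4 numbers, with differences of -0.57, -1.17, -1.79 and -1.70. The difference was -0.87 on the arrays labelled 1 and -1.75 on those labelled 2. With the gap as a covariate the difference was -0.22 (adjusted p = 0.792).

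Pbx2 probe A_51_P246471 at chr17:34733355-34733414, 1609 bases farther 3′, measured 13.11 to 14.20 in Tbx5-/+ and 14.12 to 14.68 in wild-type. The difference of -0.57 (SE 0.27) did not pass (limma adjusted p = 0.243, and 0.0785 with the embryo number as a block). It was -0.16 with the gap as a covariate, -0.20 after percentile scaling and -0.25 after centring. The 3′ minus 5′ signal of Pbx2 was 3.67, 4.61, 4.86 and 5.04 in Tbx5-/+ and 3.60 to 4.07 in wild-type. That difference of 0.74 (95% interval -0.04 to 1.52) gave an exact permutation p of 0.114, and an adjusted p of 0.286 over the 6 pairs.

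Pbx2 and Pbx3 were then compared on the same arrays by their brightest probes. The Pbx2 minus Pbx3 signal was 2.10, 1.93, 1.86 and 2.28 on Tbx5-/+ 1, 5, 6 and 7 and 1.87, 1.57, 1.60 and 1.31 on the wild-type arrays. Pbx3 was thus lower relative to Pbx2 in Tbx5-/+ within all 4 numbers, with overlap between the groups at a single pair of arrays. The change was 0.46 (95% interval 0.10 to 0.82, exact permutation p = 0.0571, adjusted p = 0.171 over 3 paralog pairs), and the sign-flip test over the 4 numbers gave an exact p of 0.125. It was -0.00073 when the mean of all probes of each gene was used.

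**Figure D3:**
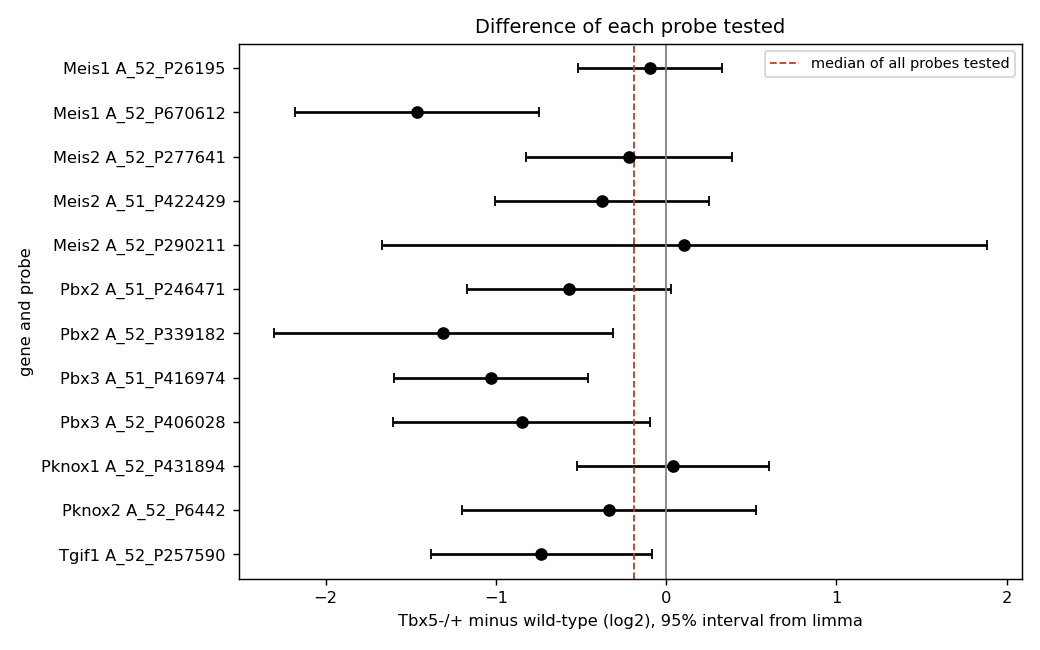
Difference of each of the 12 probes, Tbx5-/+ minus wild-type (log2, horizontal axis), with the 95% interval from limma without adjustment for the number of probes, and a dashed line at the median of all probes tested (-0.19). The intervals of 5 probes, of Meis1, Pbx2, Pbx3 (both) and Tgif1, lie wholly below 0.

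Pknox1 (Prep1), a ubiquitous partner of Pbx, did not differ beyond the spread between arrays. Its probe A_52_P431894 at chr17:31744266-31744325 measured 8.82, 9.42, 10.04 and 9.47 in Tbx5-/+ and 9.29 to 9.53 in wild-type. The Tbx5-/+ arrays lay on both sides of the narrow wild-type range. The difference was 0.04 (95% interval -0.52 to 0.60, limma adjusted p = 0.933), and it was -0.45 with the gap as a covariate.

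Pknox2, a relative of Pknox1 with a narrower expression, was measured above background by 1 of 3 probes. Probe A_52_P6442 measured 7.37 to 9.20 in Tbx5-/+ and 8.32 to 9.32 in wild-type, a difference of -0.34 (95% interval -1.20 to 0.53, limma adjusted p = 0.602). Its sign turned to 0.33 with the gap as a covariate. Probe A_51_P254608 stood above background on 0 arrays of Tbx5-/+ and 3 of wild-type, although its mean signal was 6.12 in Tbx5-/+ and 5.87 in wild-type, so no fold is given. The coding probe A_52_P637756, printed above, was well above background on 0 of 8 arrays. The change of Pknox1 minus Pknox2 was 0.38 (95% interval -1.24 to 1.99, exact permutation p = 0.714).

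Tgif1, the repressor of the group, was measured by the coding probe A_52_P257590. It read 9.60, 9.47, 8.27 and 9.16 on Tbx5-/+ 1, 5, 6 and 7 and 9.79, 10.07, 9.63 and 9.95 on the wild-type arrays. The groups did not overlap, but Tbx5-/+ 1 and wild-type 6 differed by less than 0.05. The difference was -0.73 (SE 0.29), a 1.66-fold lower signal, or -0.54 relative to the median of all probes. It did not pass in limma (adjusted p = 0.207, and 0.0660 with the embryo number as a block), and the exact permutation p was 0.0286. Tgif1 was lower within all 4 numbers, with differences of -0.18, -0.60, -1.36 and -0.78, and of -0.39 and -1.07 on the arrays labelled 1 and 2. With the gap as a covariate the difference was -0.27 (adjusted p = 0.764).

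**Figure D4:**
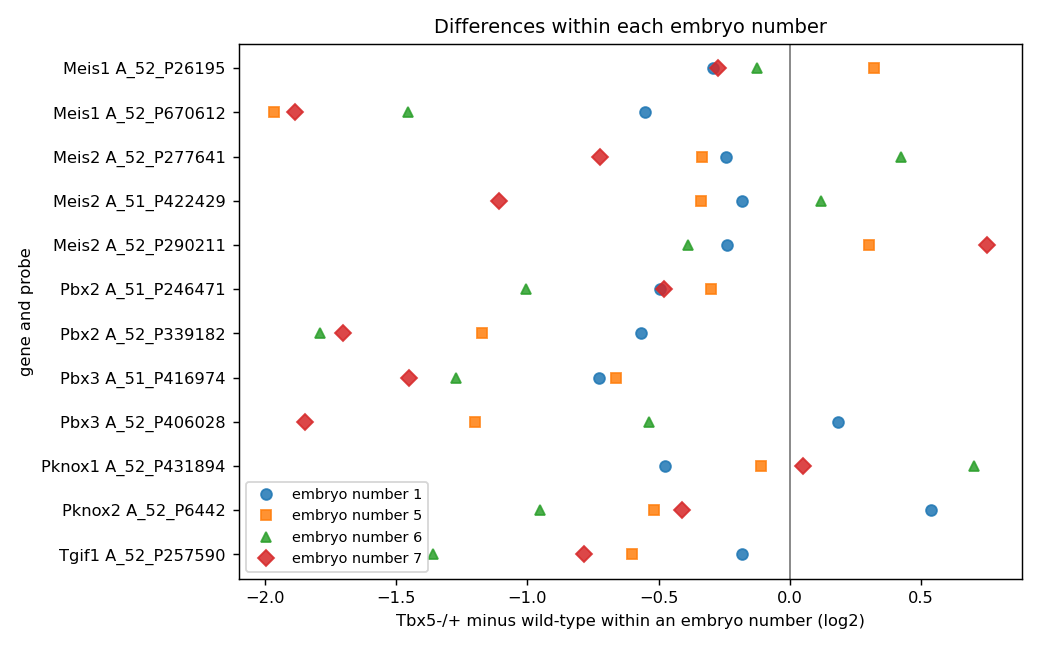
Tbx5-/+ minus wild-type within each embryo number (log2, horizontal axis) for the 12 probes, with 1 symbol per number. All 4 symbols lie below 0 for Meis1 A_52_P670612, both Pbx2 probes, Pbx3 A_51_P416974 and Tgif1 A_52_P257590.

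The probes with the largest differences kept their sign under the other scalings. Meis1 A_52_P670612 differed by -1.37 after percentile scaling, -1.06 after quantile normalization and -1.14 after centring. Under the same 3 scalings Pbx3 A_51_P416974 differed by -0.67, -0.90 and -0.71, Pbx2 A_52_P339182 by -1.23, -0.96 and -0.99, and Tgif1 by -0.47, -0.38 and -0.41. Of the 12 probes, 8 were lower after percentile scaling and after centring, and 9 after quantile normalization.

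**Figure D5:**
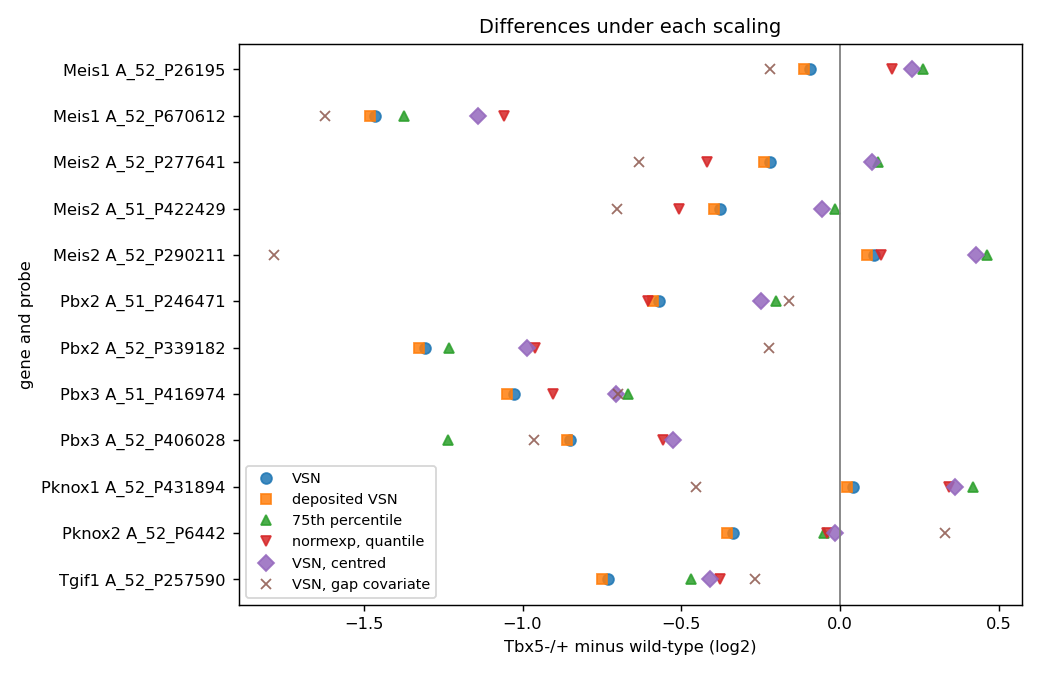
Tbx5-/+ minus wild-type (log2, horizontal axis) of the 12 probes under each scaling, with VSN as computed here, the deposited VSN values, 3 other scalings and VSN with the 3′ to 5′ gap as a covariate. Meis1 A_52_P670612 lies between -1.62 and -1.06 in all of them, whereas Pbx2 A_52_P339182 lies at -0.22 with the gap as a covariate.

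Among 11 other TALE genes, 10 were tested, and 0 passed the adjusted threshold. At an unadjusted p under 0.05, 1 was lower and 1 was higher, and the median difference was -0.13. Irx1, an Iroquois factor of several organ fields, was 12.89 in Tbx5-/+ against 12.06 in wild-type, a difference of 0.83 (adjusted p = 0.174, and 0.0407 with the block). Irx1 kept its sign under the 3 other scalings, with 0.92 to 1.22.

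The remaining Iroquois genes gave -0.27 for Irx2, -0.15 for Irx4, -0.42 for Irx5 and 0.40 for Irx6, and Irx3 was not above background often enough to be tested. Pbx4 differed by 0.36, Meis3 by -0.25, Tgif2, a relative of Tgif1, by 0.25, and Mkx, a tendon factor, by -0.12. None of these 8 reached an unadjusted p under 0.05, and the signs of Meis3, Irx2 and Mkx turned in all 3 other scalings and that of Irx4 in 2 of them.

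Hox proteins of the anterior groups are the DNA-binding partners of Pbx and Meis in this region of the embryo. Of 12 Hox genes, 11 were tested, 0 passed, 4 were lower and 0 higher at an unadjusted p under 0.05, and the median difference was -0.74. Over all probes tested 18.5% were lower and 3.38% higher by this measure, with a median of -0.19, and the same background applies to the lists and markers that follow. Of the 4 lower Hox genes, Hoxb1 was well above background on all Tbx5-/+ arrays. The rest, Hoxb4 and Hoxa3 among them, were tested only through the wild-type group, where they were brighter. Hoxb4 measured 6.35, 6.70, 5.53 and 6.36 in Tbx5-/+ and 7.98, 7.97, 7.23 and 8.03 in wild-type, a difference of -1.57. It was well above background on 1 Tbx5-/+ array and all wild-type arrays, so that it was tested only through the group where it was brighter, and no fold is given. Hoxa3 differed by -1.17 by probe A_51_P335169, without overlap (limma adjusted p = 0.147, and 0.0356 with the embryo number as a block). By probe A_52_P447935 it differed by -0.34 (adjusted p = 0.360), with overlap. Both Hoxa3 probes were well above background on 3 Tbx5-/+ arrays and all wild-type arrays, so the same limit applies.

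Of 15 coregulators of Pbx, Meis or Tgif proteins, 14 were tested, 0 passed, 5 were lower and 0 higher at an unadjusted p under 0.05, and the median difference was -0.32. Ep300, a histone acetyltransferase, was the one without overlap (7.98 against 8.62, a difference of -0.64, adjusted p = 0.172). The Ep300 difference was -0.48 after percentile scaling, -0.30 after quantile normalization and -0.32 after centring. Of 9 genes known to depend on Meis or Pbx in some tissue, 6 were tested, 2 were lower and 1 was higher at an unadjusted p under 0.05, and the median difference was -0.13. The gene without overlap there was Tbx5, which is also the mutated gene.

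Markers of the tissue and of its neighbours were measured on the same arrays. All 8 posterior second heart field markers were tested, of which 5 were lower at an unadjusted p under 0.05, Hoxb1 and the mutated Tbx5 among them. The rest of the 5, above background on 3 Tbx5-/+ arrays and all wild-type arrays, were tested only through that brighter group. With the embryo number as a block the same 5 passed the adjusted threshold, against 10.7% of all probes called lower. Isl1, Wnt2 and Nr2f2 differed by 0.35, 0.06 and 0.55, and the other Nr2f2 probes by -1.86 and -0.80. The summed signal of the 8 was 14.48 to 16.88 (log2) in Tbx5-/+ and 15.39 to 15.97 in wild-type. Nr2f2 and Wnt2 were its brightest probes. All 5 endothelial markers were tested, and 0 passed the adjusted threshold without the block and 1, Kdr, with it. At an unadjusted p under 0.05, 3 were lower, and 3 were lower without overlap, against 8.98% of all probes. Cdh5 differed by 0.14 and Tek by -0.42, or -0.09 after percentile scaling. The second probes of Cdh5 and Tek differed by -0.49 and -0.65. The summed signal of the 5 endothelial markers was 12.32 to 12.68 (log2) in Tbx5-/+ and 12.92 to 13.18 in wild-type. Kdr, a receptor for VEGF, differed by -1.12 (limma adjusted p = 0.0964, and 0.0347 with the embryo number as a block). None of the markers of foregut endoderm (8 tested), cardiomyocytes (7), neural tube (4), somite (3) and primitive erythrocytes (5) had an unadjusted p under 0.05, and of the liver bud markers (4 tested) Apoa2 did. Apoa2 was lower and was tested only through its wild-type arrays. Sox1, Olig2, Pax3, Myf5, Ttr and Apoa1 were not above background often enough to be tested. The part of endothelial cells in the lower Meis1, Pbx2, Pbx3 and Tgif1 signals was not tested.

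For each member the genes with the most similar pattern over the 8 arrays were found among 13938 genes, by Pearson's r after the median of each array was subtracted, using the brightest probe. The arrays share the 3′ to 5′ gap, and these values are a description. Pbx2 was most like Galns (r = 0.997) and Cap1 (0.994), Pbx3 was most like Alx4 (0.986) and Ntn3 (0.982), and Tgif1 was most like Slc2a8 (0.995) and Plec1 (0.994). Pknox1 was most like 1810022C23Rik (0.990) and Nsun4 (0.988), Pknox2 was most like Nub1 (0.960) and Zfp821 (0.951), and Meis2 was most like ORF19 (0.977) and Hps5 (0.959). The most similar probes for Meis1, A_52_P772671 (0.966) and A_52_P123693 (0.957), carry no gene symbol. Among the members, r was 0.89 between Pbx2 and Tgif1, 0.84 between Pbx3 and Tgif1, and -0.94 between Pbx2 and Pknox1.

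RefSeq promoter windows (GRCm38.p6) were at hand for 4 of the 7 genes, with 1 window each for Meis1, Meis2 and Pbx2 and 5 for Tgif1. The 250 bases before the start were searched on both strands for AGGTGT (the T-box core), TGACAG (Meis and Tgif) and TGATNNAT (Pbx with Hox), none of which contains another. AGGTGT was in 0 of the 8 windows and in 11.8% of 32851 windows in all, and TGACAG was in 0 of 8 and in 15.9%. TGATNNAT was in 1 of 8, a Tgif1 window, and in 7.68% of all. A match is a run of letters and not a site.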

How the data were processed

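Arrays of 4 Tbx5-/+ and 4 wild-type pools were analysed. Spot intensity, on a linear scale, is what the deposited scanner files give (Agilent Feature Extraction 10.5.1.1 per the file headers), and the authors deposited a table of log2 values after background correction and VSN. From the scanner files the median background was subtracted from the mean signal, 1115 outlier spots were removed, repeated spots were averaged, and VSN was programmed in R 4.3.3 (7 iterations, 90% of probes kept). The result had r of at least 0.9999 with the deposited values. No spot was saturated.

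Probes detected above background throughout one group or both were compared with limma 3.58.1 (two-sided, no covariate, Benjamini-Hochberg, threshold 0.05). The study's methods name SAM, which limma replaced. Single values were tested by an exact permutation over 70 assignments. Precision is limited by the number of arrays. In a simulation with 20021 probes, 200 of them changed, 11 were recovered at a log2 change of 1 and 171 at 2. The simulated noise was independent between probes, whereas 1 component held 56.9% of the variance of these arrays. Recovery in these data may therefore differ. Same-numbered samples deviated together (r = 0.438, 0.400, 0.593 and 0.137 for numbers 1, 5, 6 and 7), so the numbers were taken to pair the samples. This pairing comes from the data and the shared numbers of the labels.

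The members, lists and tests were chosen with earlier results of these data known. Every member probe, every tested gene of the other TALE list and Tbx5 were named, except 1 gene of that list that is not reported here. From each other pathway list up to 2 genes per direction were named, those with the largest difference among genes without overlap. Each member's 2 genes of most similar pattern were named as well. Kdr, Cdh5, Tek, Apoa2, Hoxb1, the markers not tested and the Tbx5 probe that did not differ were named after their values were seen. So were Isl1, Wnt2 and Nr2f2. List genes were read from their brightest tested probe. Alternatives replaced VSN by percentile scaling (75th), normexp with an offset of 50 and quantile normalization, the deposited values or centring on array medians, changed the filter on dim probes, added the embryo number, the array label or the 3′ to 5′ gap (probes at least 500 bases apart), averaged the probes of a gene, or left out 1 array. Probe positions were copied from the scanner files (mm9), and exon or UTR annotation on that build was not used here. That the printed probes are coding is background knowledge.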

Additional observations from a re-analysis of the deposited data

Results flagged for a closer look

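Among 24 groups of 4 values, 2 for each of the 12 member probes, 1 held a value far from the others: Meis1 A_52_P670612 on Tbx5-/+ 7, at 8.47 against 8.23 to 8.26 on the other Tbx5-/+ arrays. Its gap to the nearest value was 0.887 of the range of the group, past Dixon's 95% limit for 4 values. Chance marks about 1 in 20 such groups, and the value is still below every wild-type array.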

How the results depend on the processing

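The replicate block, which pairs the samples by embryo number, gave calls where 0 were made without it: 3 member probes (Meis1, Pbx2 and Pbx3), 2 of the other TALE genes, 4 Hox genes, 1 coregulator and 2 genes that depend on Meis or Pbx. It changed no other call of a member, and 11.1% of all probes were called in that fit. Leaving out 1 array gave 0 to 3 member probes called, 0 to 3 Hox genes, 0 to 3 coregulators and 0 to 3 dependent genes, with the 3 always reached without Tbx5-/+ 1. In that fit 19.2% of all probes were called. Without wild-type 1, 1 member probe (Meis1) was called, against 1.05% of all probes. Member probes with an unadjusted p under 0.05 numbered 3 in place of 5 under percentile scaling, quantile normalization, centring and the gap covariate, and 3 to 6 with 1 array left out. Over all probes the share was 24.2%, 18.9%, 22.9% and 15.2% in the order named, and 11.1% to 41.8% with 1 array left out. Member probes lower without overlap numbered 1 in place of 3 under the same 3 scalings and 3 to 5 with 1 array left out. Over all probes that share was 3.75%, 3.95% and 2.45% under these scalings and 9.28% to 21.9% with 1 array left out. The count of 5 came without wild-type 6, where the share was 19.7%. Signs turned as follows. Meis1 A_52_P26195 was 0.26, 0.16 and 0.23 after percentile scaling, quantile normalization and centring, and Meis2 A_52_P277641 was 0.12 and 0.10 after percentile scaling and centring. With the gap covariate Meis2 A_52_P290211 was -1.78, Pknox1 -0.45, Pknox2 0.33, and Pknox1 minus Pknox2 -0.78. With the mean of all probes Meis1 minus Meis2 was -0.61 and Pbx2 minus Pbx3 -0.00073. With 1 array left out Meis2 A_52_P290211 ran from -0.51 to 0.84, Pknox1 from -0.16 to 0.25, Pknox2 from -0.57 to 0.041, Meis1 minus Meis2 from -0.011 to 0.32 and Pknox1 minus Pknox2 from -0.20 to 0.82. The cause of these changes was not tested. Meis1 A_52_P670612, both Pbx2 probes, both Pbx3 probes, Tgif1 and Meis2 A_51_P422429 kept their sign under every alternative run. Changes of 2-fold were mostly not recovered in simulated data of this size with independent noise, so probes that missed the threshold are not shown to be equal.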
